A study of Mus musculus with 42 samples.

Results

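The cytosolic ribosomal protein genes were followed through gene expression arrays of sensory ganglia from BALB/c mice. Members were the genes whose symbol is Rpl or Rps followed by a digit, together with Rplp0, Rplp1, Rplp2 and Rpsa, without the Rps6k kinases and without symbols containing -ps. Only probe sets annotated to exactly 1 symbol were used. By that rule 53 of the 18337 genes on either array type were members, with 32 measured on both. The older array, MG-U74Av2, measured 35 members with 49 probe sets, and the larger Mouse430_2 measured 50 members with 106 probe sets. Rplp1 was not measured by a probe set of 1 symbol on either array, and Rplp2 and Rps6 were measured only on Mouse430_2.

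The 42 samples formed 6 groups in 3 experiments, each setting the nodose ganglion (NG) against the dorsal root ganglion (DRG). All groups were BALB/c mice under standard housing with no treatment and no transgene named in the labels, and the sources used here give no age. Whole ganglia were hybridised to MG-U74Av2, with 5 DRG and 7 NG samples. Visceral sensory neurons taken by laser capture microdissection, about 150 per sample, were hybridised to MG-U74Av2 with 5 DRG and 5 NG samples, and to Mouse430_2 with 9 DRG and 11 NG samples. Per the labels, whole ganglia and the Mouse430_2 samples gave total RNA for labelling, whereas the captured samples of the older array gave amplified RNA. The labels give 12 µg of labelled RNA for the Mouse430_2 samples as well, from about 150 neurons each. Whether that RNA was also amplified is not settled by the sources used here. The sources used here do not say how a captured cell was recognised as visceral. No label states that each sample is a different mouse. The p-values therefore rest on sample-to-sample spread alone, part of which may be technical.

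Ribosomal proteins pair with ribosomal RNA to build the small subunit, which reads the messenger RNA, and the large subunit, which joins amino acids. Their genes are transcribed in nearly every cell, and their messenger RNAs are among the most abundant of any tissue. Many of these messenger RNAs begin with an unbroken run of C and T, the terminal oligopyrimidine tract, through which nutrient signalling by mTOR and LARP1 sets how strongly they are translated. Sensory neurons carry large numbers of ribosomes in the cell body, where they form the Nissl substance, and ribosomal protein messenger RNAs are also found in axons. A few symbols caught by the rule stand apart. Rps4l, Rpl22l1, Rpl39l, Rps27l, Rpl7l1 and Rpl3l are paralogs, and Rps19bp1 is a binding partner of Rps19 and no ribosomal protein.

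Start regions of members that the comparisons turn on were read from the RefSeq promoter table of build GRCm38.p6, in which 46 of the 53 members had an entry. Each window is printed 5′ to 3′ on the gene's own strand and spans 30 bases, 12 before the annotated transcription start and 18 from it on. Capitals mark a run of 8 or more bases that are all C or T and that begins within 10 bases of the start. Rps18, Rps10 and Rpl13a, from the small and large subunits, and Rpl35 and Rpl22l1 are shown as members with such a run. Rpl37a, Rps28, Rpl11, Rps3a1 and Rpsa are shown as members without one in the window.
Rps18 (chr17:33955648-33955677, minus strand): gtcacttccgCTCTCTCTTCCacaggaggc
Rps10 (chr17:27635227-27635256, minus strand): ccgcgcacgCCCCTTCCTTTCCagcctccg
Rpl13a (chr7:45128728-45128757, minus strand): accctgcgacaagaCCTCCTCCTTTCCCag
Rpl35 (chr2:39005114-39005143, minus strand): ccccgCCCTTTCCTCTTTCTCTCgaaccag
Rpl22l1 (chr3:28805496-28805525, plus strand): cggcgcaagcccgTTCTCTTCCCacggctg
Rpl37a (chr1:72711248-72711277, plus strand): cgctcgccggtctaaaaccgcgcatgcgca
Rps28 (chr17:33824545-33824574, minus strand): accgcgtgcggtctcgcgagagcgaaagtg
Rpl11 (chr4:136053376-136053405, minus strand): acccataaggccacggggccggaagtctcc
Rps3a1 (chr3:86142651-86142680, minus strand): aagccggaagggcgaaagagcaagggtcac
Rpsa (chr9:120127754-120127783, plus strand): ggttatttaaggacgtcatttccggccgcc

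Over all members with an entry, 16 of 46 (34.8%) held a C/T run at the start, against 2897 of 27025 genes in the table (10.7%). The letters TATAA, searched in the 50 bases before the start on the gene's strand, were found for 5 of 46 members (10.9%) and for 1591 genes (5.89%). A match describes letters near 1 annotated start and is no evidence of translation control, and a missing match says only that the run is not in this window.

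In whole ganglia the family moved in both directions. Of 26 members above the signal filter, 5 were higher in NG and 6 were lower at a limma adjusted p under 0.05, against 20.6% of the 5897 genes tested that were higher and 16.9% that were lower. The members' share in each direction was near that background, and 9 were higher and 8 lower at an unadjusted p under 0.05. The median log2 difference, NG minus DRG, was 0.02 over the members and 0.05 over all genes. Of 12 large subunit members 2 were higher and 1 was lower, and of 14 small subunit members 3 were higher and 5 were lower.

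Signals are the deposited MAS5 values, with every array scaled to 1 trimmed mean and the sign of each difference given as NG minus DRG. Rps4l, a paralog of the small subunit protein Rps4x, had the largest rise. Its signal was 91.7, 187, 112, 130 and 89.4 in the 5 whole DRG samples and 226 to 343 with a median of 259 in the 7 NG samples. The groups did not overlap, and the log2 difference was 1.18 (SE 0.16, limma adjusted p = 2.4e-05). Rpsa, a small subunit protein that is also known as the laminin receptor, read 311, 344, 327, 356 and 342 in DRG. In NG it ran from 412 to 538 with a median of 459, so every NG sample lay above every DRG sample (log2 difference 0.46, SE 0.10, adjusted p = 0.00124). Rpl8, which lies near the peptidyl transferase centre of the large subunit, read 925, 776, 886, 857 and 909 in DRG and 964 to 1394 with a median of 1066 in NG. Its groups did not overlap either (log2 difference 0.37, adjusted p = 0.00862). Rpl10a (0.47, adjusted p = 0.0429) and Rps7 (0.36, adjusted p = 0.0276) completed the rise, with overlapping groups. Rpl10a lost its call without 6 of the 12 samples in turn, and Rps7 without 3, and without DRG070 only 3 members were higher. Higher calls over all genes went from 1215 to 1065 without DRG070.

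Among the members lower in whole NG, Rps18, Rpl13a and Rps3a1 had groups that did not overlap. The share of all genes tested whose groups do not overlap was not counted in any comparison, so a lack of overlap describes single genes only. Rps18, a protein of the small subunit head, read 449, 385, 512, 511 and 355 in DRG and 219 to 344 with a median of 291 in NG (log2 difference -0.62, SE 0.13, adjusted p = 0.00138). Rpl13a, a large subunit protein also known as a translational repressor outside the ribosome, was 718 ± 83.4 (SD, n = 5) in DRG and 495 ± 63.1 (SD, n = 7) in NG (log2 difference -0.53, adjusted p = 0.00101). Rps3a1, a small subunit protein, read 2207, 2403, 2290, 2510 and 2605 in DRG and 1572 to 2030 with a median of 1862 in NG (log2 difference -0.38, adjusted p = 0.0018). Every DRG sample of these 3 genes lay above every NG sample. Rps19, a small subunit protein mutated in Diamond-Blackfan anaemia, Rps10 and Rps3 were lower with overlapping groups, by log2 differences of -0.56, -0.40 and -0.28 (adjusted p = 0.0243, 0.0444 and 0.0486). Rps19 lost its call without either DRG019 or DRG026, and either left 3 members lower. Lower calls over all genes then went from 997 to 900 and 846. The call of Rps10 was lost without 8 of the 12 samples in turn and that of Rps3 without 9. Rplp0, the stalk protein of the large subunit, had a log2 difference of -0.21 that missed the threshold (adjusted p = 0.132).

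In captured neurons on MG-U74Av2 the members leaned towards DRG. Of 27 members tested, 10 were lower in NG, against 11.9% of the 5784 genes tested, and 1 was higher, against 11%. The median log2 difference was -0.26 over the members and 0.05 over all genes. The lower calls comprised 7 of the 13 large subunit members and 3 of the 14 small subunit members. The plot of member differences by experiment sets these beside the whole ganglia.

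**Figure D1:**
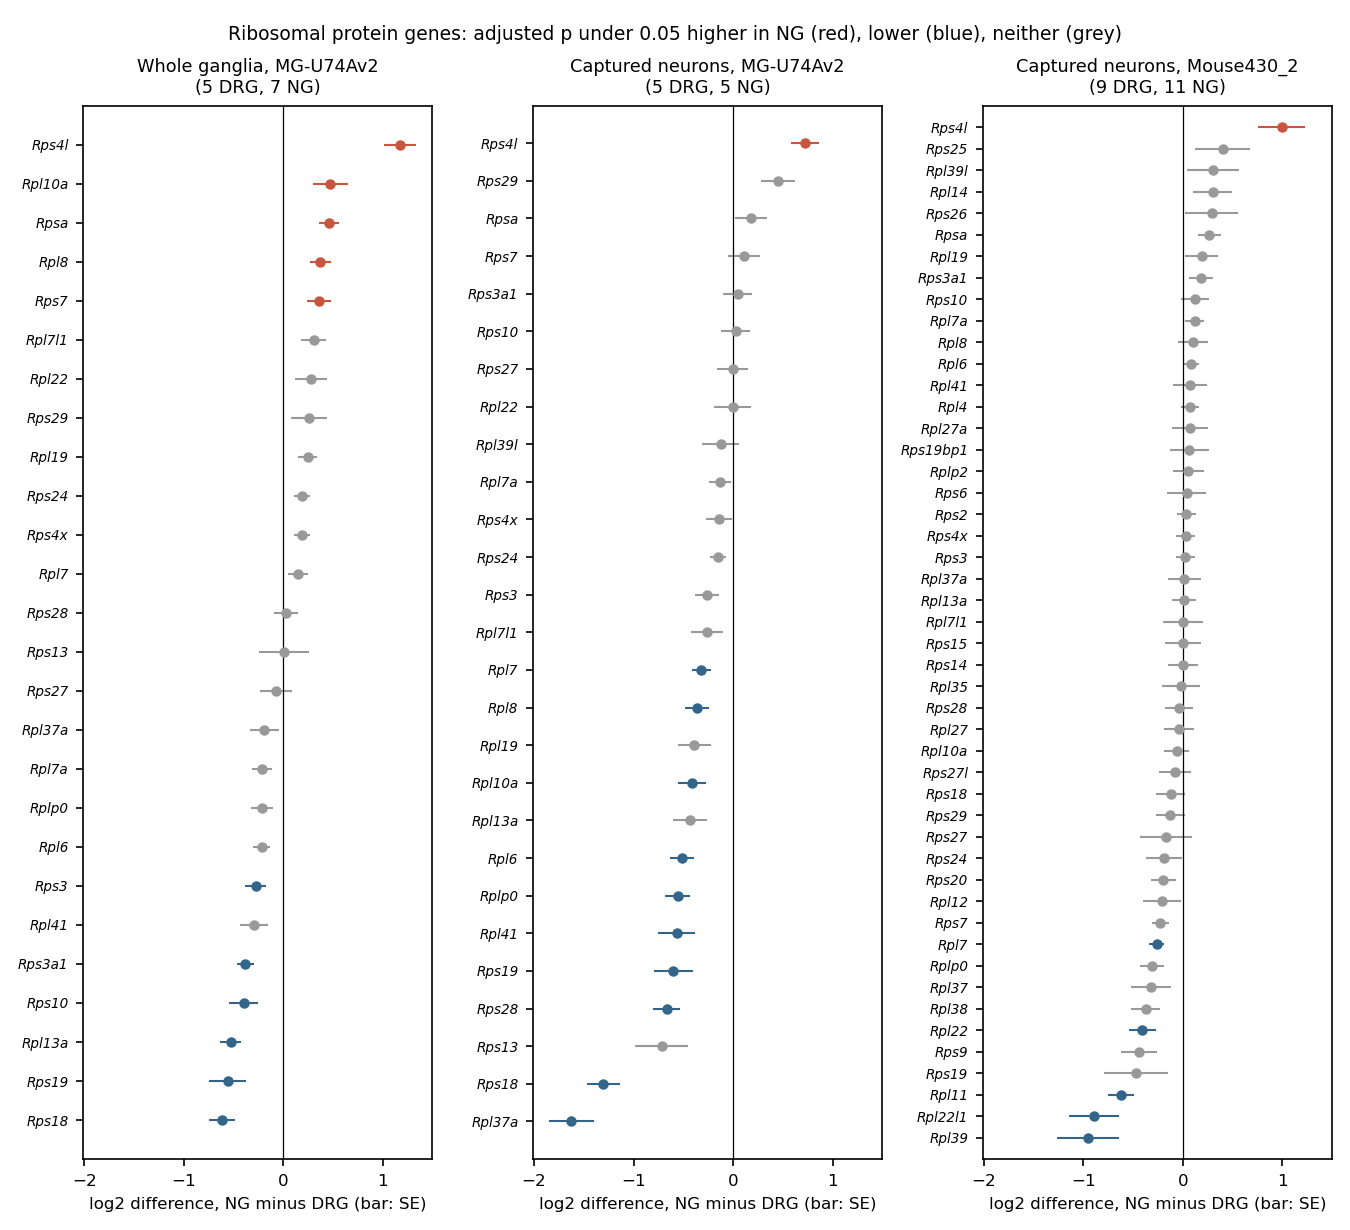
Log2 difference, NG minus DRG, of each member tested in whole ganglia, captured neurons on MG-U74Av2 and captured neurons on Mouse430_2, with points marked by whether the limma adjusted p was under 0.05. The members centre near 0 in whole ganglia (median 0.02) and on Mouse430_2 (median 0.00), and below 0 in captured neurons on MG-U74Av2 (median -0.26).

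Rpl37a, a small zinc-binding protein of the large subunit, differed most. Its signal was 543, 389, 383, 382 and 358 in the captured DRG samples and 81.5, 186, 180, 124 and 85.6 in the NG samples. All NG samples lay below all DRG samples, by a log2 difference of -1.63 (SE 0.22, limma adjusted p = 0.000117) or 3.09-fold. The same probe set in whole ganglia gave 229, 157, 217, 200 and 217 in DRG and 131 to 229 in NG, so its groups overlapped there. Rps18 read 946, 891, 797, 717 and 674 in captured DRG and 303, 250, 359, 435 and 270 in NG. Again no sample overlapped, and the log2 difference was -1.30 (SE 0.17, adjusted p = 5.53e-05) or 2.47-fold, in the same direction as in whole ganglia. Rps28, a small subunit protein next to the messenger RNA exit, read 2699, 3102, 2433, 2459 and 1984 in DRG and 1832, 1454, 1655, 1728 and 1273 in NG (log2 difference -0.67, adjusted p = 0.00259). Its lowest DRG sample stood above its highest NG sample.

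Rplp0 read 4680, 5027, 4312, 3830 and 3479 in captured DRG and 3529, 2433, 3164, 2584 and 2807 in NG. The groups overlapped by 1 sample each, and the log2 difference was -0.55 (adjusted p = 0.00559). Rpl8 read 473, 418, 417, 475 and 488 in DRG and 359, 334, 367, 328 and 370 in NG, without overlap, yet its log2 difference of -0.36 was close to the threshold (adjusted p = 0.0475) and the call was lost without any of the 10 samples. Rpl6 (-0.51), Rpl41 (-0.57), Rps19 (-0.60), Rpl10a (-0.41) and Rpl7 (-0.32), of which all but Rps19 belong to the large subunit, were also lower, with adjusted p from 0.00727 to 0.044. Rps19, Rpl41 and Rpl10a each lost the call without 6 of the 10 samples in turn. The count of lower members fell to 5 without DRG003, DRG008, DRG010 or NG014 and to 6 without NG003. Lower calls over all genes went from 689 to 589, 596, 555, 668 and 677 in the same order. Rpl8 and Rpl10a were therefore called higher in NG in whole ganglia and lower in NG in captured neurons on MG-U74Av2. In captured neurons on Mouse430_2 they gave log2 differences of 0.10 and -0.06, neither of them called (limma adjusted p = 0.689 and 0.786).

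Rps4l was the only member higher in captured NG on MG-U74Av2, at 112, 128, 113, 140 and 127 in DRG and 231, 228, 188, 185 and 227 in NG. The groups did not overlap (log2 difference 0.72, SE 0.14, adjusted p = 0.00202). A second Rps4l probe set gave a log2 difference of 0.14 that was not called (adjusted p = 0.666), so the rise there rests on 1 of its 2 probe sets. The rise in whole ganglia came from that same called probe set, the only one of the gene tested there. Rpsa, higher in whole NG, had overlapping signals of 470 to 665 in captured DRG and 495 to 744 in captured NG (log2 difference 0.18, adjusted p = 0.464). The paralogs Rpl39l and Rpl7l1 had log2 differences of -0.13 and -0.26 (adjusted p = 0.679 and 0.274).

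**Figure D2:**
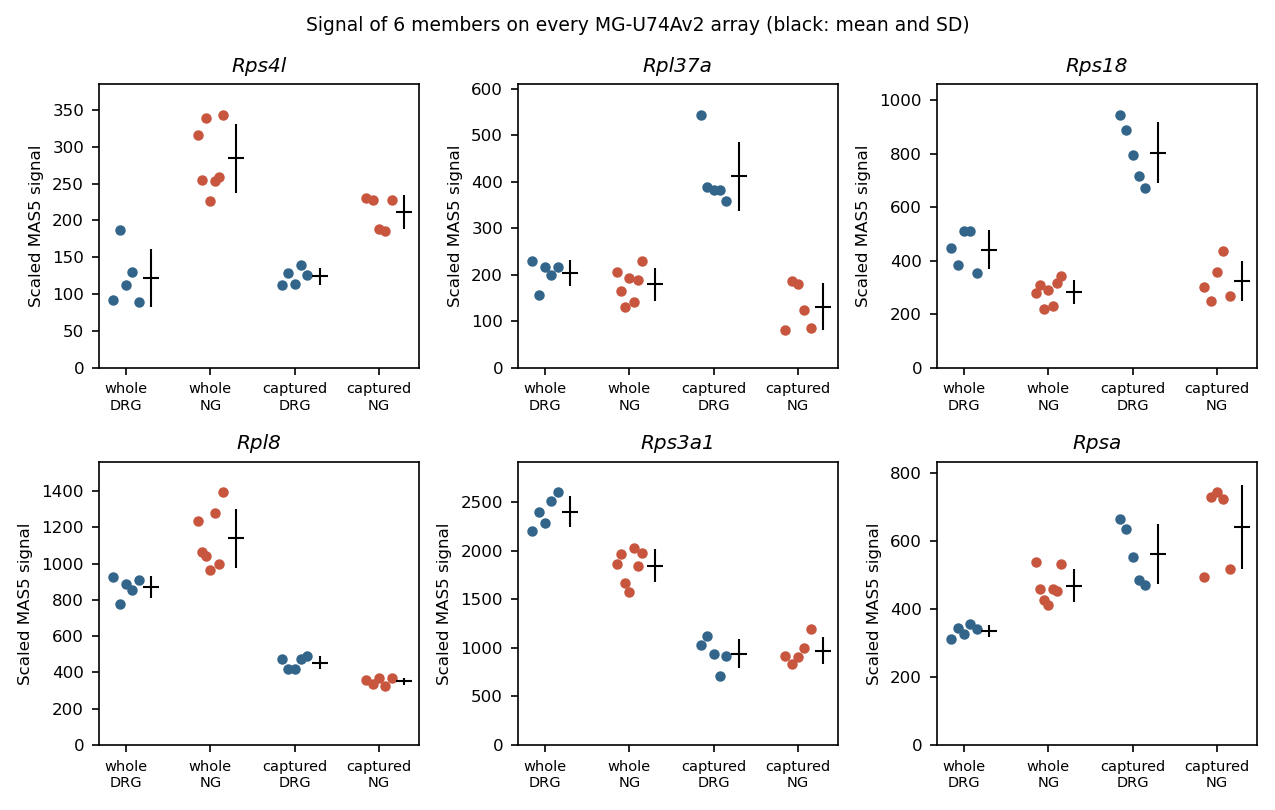
Scaled MAS5 signal of Rps4l, Rpl37a, Rps18, Rpl8, Rps3a1 and Rpsa on every MG-U74Av2 array, on a linear axis with the mean and SD of each group. Rps4l sits higher in NG in whole ganglia and in captured neurons, while Rpl37a separates the ganglia in captured neurons and overlaps in whole ganglia.

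Measures of RNA quality and markers of other cell types differed between the ganglia in these captured samples. Marker counts below stand against 11% of all genes tested higher in captured NG and 11.9% lower. The log2 ratio of the 3′ to the 5′ beta actin probe set, which rises as transcripts are shortened, was 5.45 ± 0.18 (SD, n = 5) in captured DRG and 5.82 ± 0.23 (SD, n = 5) in captured NG, and 2.80 ± 0.08 (SD, n = 5) and 2.94 ± 0.40 (SD, n = 7) in whole DRG and NG. The same ratio for Gapdh went the other way in captured samples, at 6.96 ± 0.38 (SD, n = 5) in DRG and 6.63 ± 0.25 (SD, n = 5) in NG. With the beta actin ratio as a covariate, 6 members were lower in captured NG, while calls over all genes went from 634 higher and 689 lower to 282 and 394. The summed signal of 13 satellite glia and Schwann cell markers was 15300 to 17720 in captured DRG and 13090 to 13960 in captured NG, and 4 of the 13 tested were lower in NG and 0 higher (limma, 5 and 0 at an unadjusted p under 0.05). In whole ganglia the same sum overlapped, at 18620 to 22060 in DRG and 19190 to 23660 in NG. The summed macrophage and lymphocyte markers were 432 to 600 in captured DRG and 857 to 1183 in captured NG, where 2 of 6 tested were higher, and the endothelial and mural sums overlapped at 892 to 1180 and 659 to 1231. Of 7 endothelial and mural markers tested, 3 were lower in captured NG, among them Cdh5 (-1.80), and 1 was higher, Kdr (1.63). No marker was at 0, since the deposited files hold no value of 0. The part of RNA quality or of these cells in the members' differences was not tested. Fewer cells of a type and less RNA per cell cannot be told apart in these samples.

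On Mouse430_2 the members showed little lean as a family. Of 48 members tested, 5 were lower in NG, against 13.6% of the 13973 genes tested, and 1 was higher, against 13%. The median log2 difference was 0.00 over the members and -0.02 over all genes. All 5 lower members, Rpl11, Rpl22l1, Rpl7, Rpl39 and Rpl22, are among the 25 tested that belong to the large subunit or are its paralogs. Of 23 members with an Rps symbol, the binding partner Rps19bp1 among them, Rps4l was higher and 0 were lower by limma. These counts use the brightest probe set of each gene. Dimmer probe sets of the small subunit genes Rps18 (-0.62) and Rps20 (-0.85) were called lower. At an unadjusted p under 0.05, 2 of the 48 members were higher and 9 lower.

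Rps4l ran from 28.1 to 124 with a median of 106 in the 9 DRG samples and from 110 to 368 with a median of 171 in the 11 NG samples. The groups overlapped only at their edges (log2 difference 0.99, SE 0.24, limma adjusted p = 0.00254). It was the 1 member called higher in NG in all 3 experiments, among 25 members tested in each. The captured experiments share 5 DRG and 5 NG sample numbers, so calls made in both, here and below, may not be independent.

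Rpl11, a large subunit protein also known for binding Mdm2 when ribosome assembly is disturbed, ran from 493 to 1030 with a median of 589 in DRG. In NG it ran from 349 to 504 with a median of 391, with a slight overlap, and the log2 difference was -0.62 (SE 0.13, adjusted p = 0.00073). Rpl22l1, the paralog of Rpl22, ran from 20.8 to 119 with a median of 74.9 in DRG and from 16.1 to 37.1 with a median of 33.4 in NG. Most DRG samples lay above the NG range (log2 difference -0.90, SE 0.25, adjusted p = 0.0107). Rpl22 itself differed by -0.41 (adjusted p = 0.0308), and its call was lost without 5 of the 20 samples in turn.

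Rpl7 ran from 2676 to 3568 with a median of 3032 in DRG and from 2242 to 2997 with a median of 2543 in NG (log2 difference -0.26, SE 0.07, adjusted p = 0.0106). All 3 of its probe sets were lower in NG, by -0.26, -0.42 and -0.38, and Rpl7 was the 1 member called lower in both captured experiments. Rpl39, among the smallest ribosomal proteins, had low signals, from 21.5 to 90.8 with a median of 42.3 in DRG and from 3.10 to 77.3 with a median of 13.3 in NG. Its log2 difference was -0.95 (adjusted p = 0.0278), with overlapping groups, and the call was lost without DRG008 or DRG002. Without DRG002 the count of lower members was 3, and lower calls over all genes went from 1906 to 1853. The count of higher members was 2 without DRG005 or NG015, with higher calls over all genes of 1784 and 1686, from 1810.

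The members that differed most on MG-U74Av2 were not called here by their brightest probe sets. Rpl37a ran from 203 to 471 in DRG and from 226 to 533 in NG (log2 difference 0.01, adjusted p = 0.966), and its other probe sets gave -0.39 and -0.33. Rps18 had a log2 difference of -0.12 (adjusted p = 0.621), while a dimmer Rps18 probe set gave -0.62 (adjusted p = 0.0327). The acidic stalk proteins Rplp0 and Rplp2 gave -0.31 and 0.05 (adjusted p = 0.0665 and 0.855), and Rpsa gave 0.27 (adjusted p = 0.0959). Rplp0 passed the threshold after quantile normalisation (adjusted p = 0.037). Rpsa passed after quantile normalisation (adjusted p = 0.0363) or with every array set to the same median (adjusted p = 0.0237). Rps6, the small subunit protein whose phosphorylation reports mTOR signalling, differed by 0.04 (adjusted p = 0.927). The paralogs Rpl39l, Rpl7l1 and Rps27l and the binding partner Rps19bp1 gave 0.30, 0.00, -0.08 and 0.06, none of them called (adjusted p from 0.47 to 0.997). Array types were normalised separately, so levels are not set across them.

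Markers of other cells differed on Mouse430_2 as well, where 13% of all genes tested were higher in NG and 13.6% lower. The glia sum over 14 genes was 14370 to 17530 in DRG and 11280 to 14500 in NG, with 6 of 14 lower and 0 higher (limma, 7 and 1 at an unadjusted p under 0.05). Endothelial and mural sums were 1676 to 3281 in DRG and 908 to 1724 in NG, with 4 of 11 markers lower, among them Rgs5 (-2.94), and 2 higher, among them Kdr (2.44). Macrophage and lymphocyte sums overlapped, at 649 to 1009 in DRG and 754 to 1315 in NG, with 1 of 8 markers higher. The beta actin log2 ratio was 5.61 ± 0.27 (SD, n = 9) in DRG and 5.71 ± 0.37 (SD, n = 11) in NG, and the Gapdh ratio was 6.88 ± 0.46 (SD, n = 9) and 6.70 ± 0.40 (SD, n = 11). The summed sensory neuron markers were 31910 to 47000 in DRG and 27450 to 37150 in NG, and on MG-U74Av2 they overlapped at 43750 to 46390 and 43760 to 48880. The part of these differences in the members' values was not tested.

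Sample numbers split the Mouse430_2 experiment. The 5 DRG and 5 NG numbers that were also used for captured neurons on MG-U74Av2 and the 4 DRG and 6 NG numbers that were not gave opposite medians over the members. The labels do not say whether equal numbers mean the same RNA. Fitted alone, the shared numbers gave 10 members lower in NG, against 10.5% of 13827 genes, and 0 higher, against 8.35%, with a member median of -0.31 (limma, adjusted p under 0.05). The absent numbers gave 4 members higher, against 9.3% of 14333 genes, and 1 lower, against 8.96%, with a member median of 0.26.

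In 1 fit of all 20 samples, the shared numbers gave 0 members higher, against 8.23% of genes, and 8 lower, against 9.48% (3 and 13 members at an unadjusted p under 0.05). The absent numbers gave 5 higher, against 11.1%, and 2 lower, against 10.6% (12 and 5 at an unadjusted p under 0.05). The ganglion difference in shared minus that in absent numbers was negative and called for 3 of 48 members and positive for 0 (21 and 2 at an unadjusted p under 0.05). Over all genes 1.07% were called negative and 1.15% positive, and the median was -0.53 over the members and -0.06 over all genes. Rps19 gave -2.06 (adjusted p = 0.0365), from 0.58 in absent to -1.47 in shared numbers. Rpl35, a large subunit protein at the exit of the peptide tunnel whose start region is printed above, gave -1.26 (adjusted p = 0.0189), from 0.63 to -0.62. Rpl8 gave -0.81 (adjusted p = 0.0427), from 0.48 to -0.33. These 3 members thus pointed to NG in one set of samples and to DRG in the other.

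The beta actin log2 ratio was 6.01 ± 0.12 (SD, n = 5) in NG samples with shared numbers, 5.46 ± 0.32 (SD, n = 6) in NG samples with absent numbers, and 5.61 ± 0.20 (SD, n = 5) and 5.60 ± 0.38 (SD, n = 4) in the matching DRG samples. The Gapdh log2 ratio was 7.02 ± 0.36 (SD, n = 5) and 6.43 ± 0.16 (SD, n = 6) in NG samples with shared and absent numbers, and 6.70 ± 0.16 (SD, n = 5) and 7.10 ± 0.64 (SD, n = 4) in DRG. Within DRG the shared numbers had 6 members higher than the absent ones, against 1.69% of genes, and 0 lower, against 1.2% (median 0.30, 16 and 2 at an unadjusted p under 0.05, limma). Within NG they had 0 higher, against 0.458%, and 1 lower, against 0.494% (median -0.14, 0 and 8 at an unadjusted p under 0.05). The summed sensory neuron markers separated the sets without overlap, at 31910 to 38180 in shared and 40300 to 47000 in absent DRG samples, and at 32550 to 37150 in shared and 27450 to 31880 in absent NG samples. Mean glia sums were 15780 and 15900 in DRG and 12930 and 12870 in NG for shared and absent numbers. The part of RNA quality and of neuron content in this split was not tested.

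The median of all members on an array, with each member centred on its mean over the experiment, describes how far the family as a whole stood up or down in a sample. On MG-U74Av2 it was 0.22, 0.28, 0.13, 0.04 and -0.08 log2 units for DRG003, DRG008, DRG010, DRG014 and DRG006. On Mouse430_2 the same DRG numbers gave 0.34, 0.33, 0.07, -0.01 and 0.00. DRG003 and DRG008 were the highest of these DRG numbers on both array types. For NG003, NG007, NG008, NG010 and NG014 it was -0.16, -0.08, -0.07, -0.12 and -0.19 on MG-U74Av2 and -0.10, 0.00, 0.11, -0.16 and -0.26 on Mouse430_2. NG014 was the lowest and NG008 the highest of these NG numbers on both. The widest values among the absent numbers were -0.37 in DRG011 and 0.37 in NG012.

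**Figure D3:**
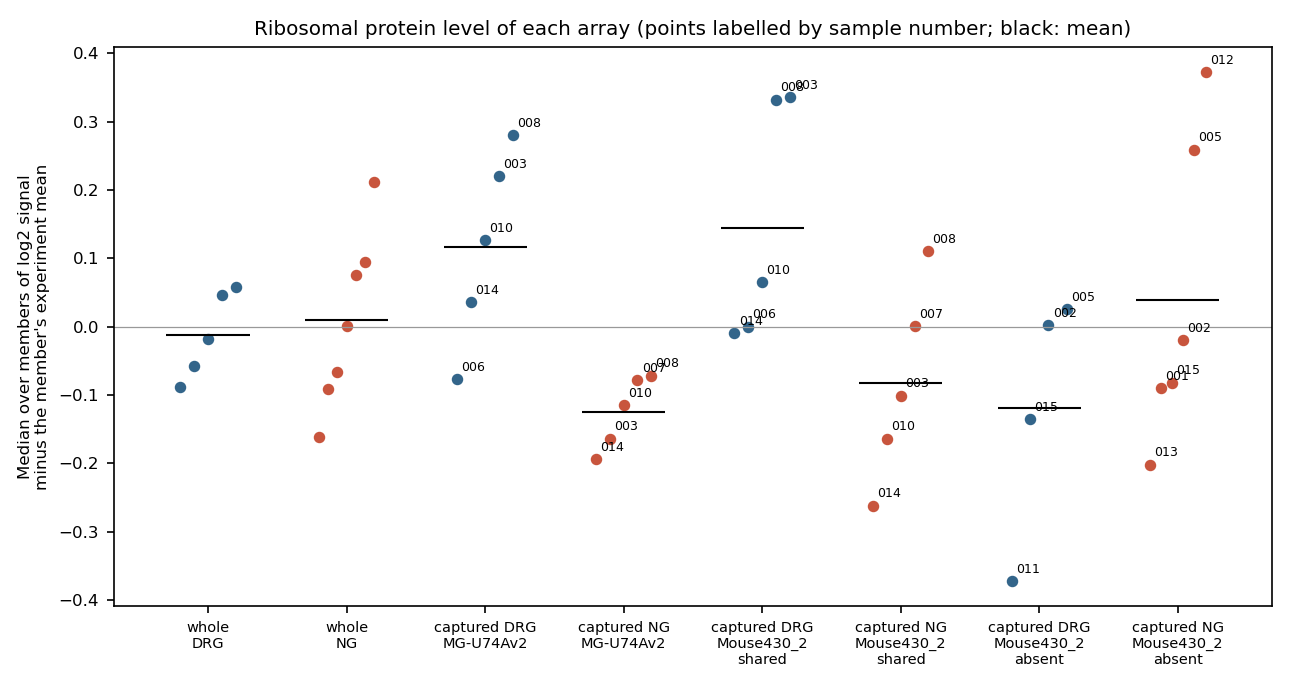
Median over the members of the centred log2 signal on each array, by ganglion and experiment, with Mouse430_2 samples marked by whether their number was also used on MG-U74Av2. Captured DRG and NG samples on MG-U74Av2 have means of 0.12 and -0.12 and overlap in DRG006 and NG008, while on Mouse430_2 the values run from -0.37 to 0.37 and the ganglia overlap widely.

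On MG-U74Av2 captured neurons could also be set against whole ganglia, in 1 fit of the 4 groups with 27 members and 6261 genes tested. Capture and RNA amplification go together in these groups and cannot be told apart. In DRG 11 members were higher in captured neurons, against 22.9% of genes, and 6 were lower, against 25.4%. In NG 4 were higher, against 26%, and 10 were lower, against 30.3%. The member median was 0.11 in DRG and -0.06 in NG, and the median of all genes was 0.01 and -0.01. Both ganglia share 3 higher members, Rpl39l, Rpsa and Rpl7, and 6 lower members, Rps7, Rps4x, Rps3, Rpl6, Rpl8 and Rps3a1, while Rpl37a was higher in DRG and lower in NG.

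Rpl39l, a paralog of Rpl39 known from testis, rose from a mean of 9.81 in whole DRG to 46.3 in captured DRG, where single samples read 48.7, 50.3, 49.96, 41.9 and 40.9. In NG it rose from 8.01 to 41.9, with captured samples at 45.7, 37.9, 43.4, 50.8 and 31.7 (log2 difference 1.47, limma adjusted p = 1.25e-06). Its whole ganglion signals lay below the filter, and it was tested only because the captured samples passed it, so its count as higher follows in part from the filter. Rps3a1 fell from 2403 to 942 in DRG (log2 difference -1.35, adjusted p = 7.08e-10). Its captured samples read 1030, 1118, 934, 713 and 914 in DRG and 914, 833, 909, 1000 and 1195 in NG, all below every whole sample of the same ganglion.

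Rpl8 fell by 0.92 on the log2 scale in DRG and by 1.65 in NG (SE 0.10, adjusted p = 8.7e-13), from a whole NG mean of 1139 to a captured NG mean of 352. Rps13 (1.13), Rpl10a (0.99), Rpl37a (0.97) and Rps18 (0.85) were higher in captured than in whole DRG, and Rpl6 (-0.67), Rps3 (-0.50), Rps4x (-0.48) and Rps7 (-0.47) were lower. In NG Rpl6 (-0.97), Rps3a1 (-0.93), Rps4x (-0.81), Rps7 (-0.72) and Rpl19 (-0.55) were lower, and Rpsa (0.43), Rps10 (0.38) and Rpl7 (0.24) were higher. Without single samples in turn the call of Rpl7 in NG was lost 8 times of 12, that of Rps10 5 times and that of Rps4l (-0.40) 4 times. Without whole NG039, NG073 or NG020, or captured NG003, 2 members were higher in captured NG. Higher calls over all genes were then 1600, 1557, 1528 and 1541, from 1629.

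**Figure D4:**
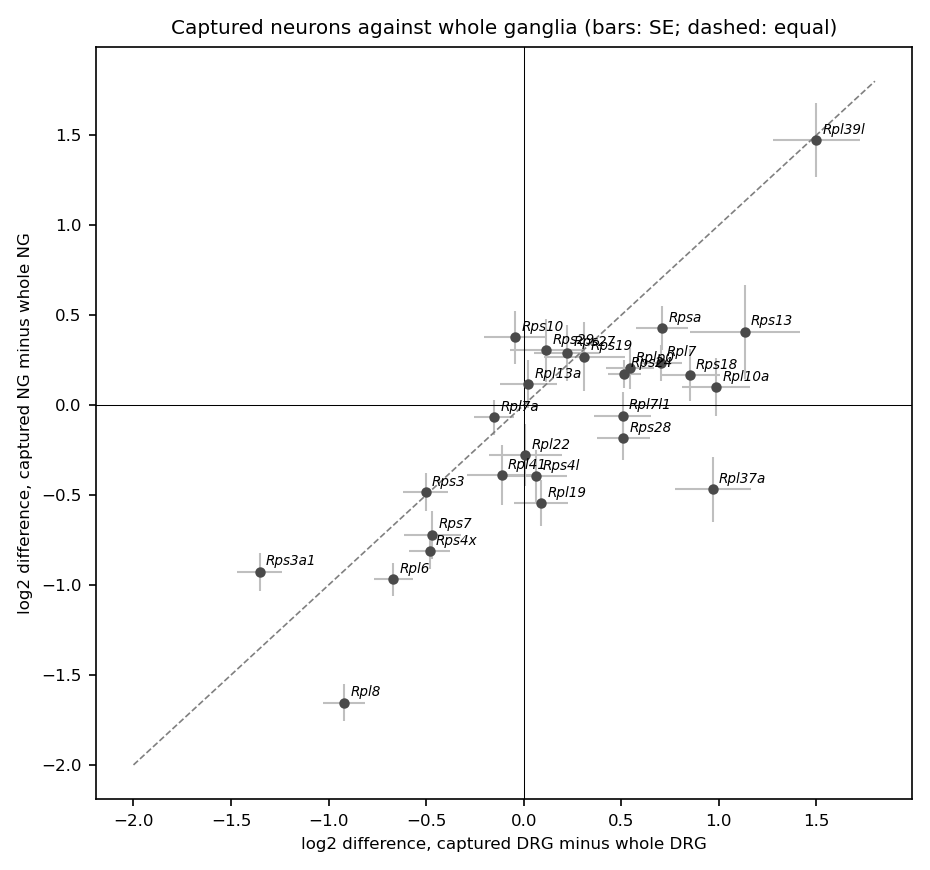
Log2 difference, captured minus whole, of the 27 members tested on MG-U74Av2, with DRG on the horizontal and NG on the vertical axis and the line of equality drawn. Both axes share no samples, and 20 of the 27 members lie below the line, with Rpl37a farthest from it.

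With the beta actin ratio as a covariate these calls almost vanish, to 0 higher and 1 lower in DRG and 0 higher and 4 lower in NG. The ratio runs from 2.26 to 3.44 in whole ganglia and from 5.28 to 6.197 in the captured samples, so in that fit it cannot be told apart from capture, and over all genes in DRG only 35 were higher and 75 lower. Of 13 glia markers, 7 were lower and 3 higher in captured than in whole DRG, and 10 were lower and 1 higher in NG, against the shares of all genes given above. The part of RNA quality, amplification and cell makeup was not tested.

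The test of the difference itself, the ganglion difference in captured neurons minus that in whole ganglia, called 9 of 27 members negative, against 11.1% of genes, and 0 positive, against 8.24% (limma, adjusted p under 0.05). At an unadjusted p under 0.05 there were 12 negative and 1 positive, and without captured DRG003, DRG008 or NG003 1 member was called positive. Positive calls over all genes were then 485, 487 and 522, from 516. The member median was -0.30 and that of all genes -0.02. Rpl37a gave the most negative value at -1.43 (SE 0.27, 95% interval -1.96 to -0.92, adjusted p = 0.000374). Rpl10a (-0.89), Rpl8 (-0.73), Rps28 (-0.69), Rps18 (-0.68), Rpl19 (-0.63), Rpl7l1 (-0.57), Rpl7 (-0.47) and Rps24 (-0.34) followed, with adjusted p from 0.000955 to 0.0452. The call of Rpl7l1 was lost without 14 of the 22 samples in turn. Rps4l gave -0.46, Rplp0 -0.34 and Rpsa -0.28, none of them called (adjusted p = 0.154 for Rps4l and 0.17 for Rplp0), and the highest value was that of Rps3a1, 0.43 (adjusted p = 0.0571). This difference reuses the samples of the comparisons above and adds no independent evidence to them.

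With every array set to the same median instead of the same trimmed mean, the split of calls moved. The share of calls over all genes that were higher went from 54.9% to 39.9% in whole ganglia (members 2 higher and 9 lower) and from 48.7% to 67.1% on Mouse430_2 (members 2 and 2). It went from 46.2% to 59.4% for captured minus whole NG (members 8 and 7) and from 42.6% to 59.6% for the difference between ganglion differences (members 1 and 4). The median of all genes moved with it, from 0.05 to -0.06, from -0.02 to 0.12, from -0.01 to 0.15 and from -0.02 to 0.09. Captured neurons on MG-U74Av2 kept a split within 10 percentage points.

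Different probe sets of a member did not always move together. Rps28 was called both ways for captured minus whole DRG, at 0.51 and -0.51, and in captured neurons its other probe sets gave -0.67 and 0.24 for NG minus DRG. Rpl19 was called both ways for captured minus whole NG, at -0.55 and 0.87. A second probe set of Rpl10a gave 0.22 in whole ganglia (adjusted p = 0.139) and -0.94 in captured neurons (adjusted p = 0.00617). Rps20 on Mouse430_2 gave -0.20 by its brightest probe set and -0.85 by another (adjusted p = 0.0231). Over all probe sets tested, whatever their number of symbols, 19.6% were higher and 15.8% lower in whole ganglia. The shares were 10.4% and 11.3% in captured neurons on MG-U74Av2, and 9.72% and 12.5% on Mouse430_2.

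Ribosomal protein genes have many processed pseudogenes and near-identical copies, so cross-hybridisation is a known limit of their probe sets. On Mouse430_2 37.7% of member probe sets carried the suffix _x_at, which marks probes shared with unrelated sequences, against 5.83% of all probe sets. Member probe sets annotated to several symbols, 39 on MG-U74Av2 and 110 on Mouse430_2, were left out of the counts above. Of those tested, 2 of 31 were higher and 4 lower in whole ganglia, against 19.6% and 15.8% of all probe sets tested. In captured neurons on MG-U74Av2 0 of 33 were higher and 11 lower, against 10.4% and 11.3% (limma, 0 and 15 at an unadjusted p under 0.05). On Mouse430_2 2 of 99 were higher and 16 lower, against 9.72% and 12.5%. Their median log2 differences were -0.05, -0.22 and -0.12, against 0.05, 0.05 and -0.05 over all probe sets tested.

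Members below the signal filter gave no comparison. In whole ganglia these were Rps15, Rpl39l, Rps27l, Rpl32, Rpl35a, Rps20, Rpl39, Rpl38 and Rps14, whose median signals lay between 7.86 and 31.7. The captured samples of the same array type left out these genes except Rpl39l, and on Mouse430_2 they were Rpl3l and Rps16. Rps14, Rps15, Rps16 and Rpl32 encode core proteins of the ribosome, and no level of these genes is drawn from the dim probe sets.

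The rest of the translation machinery was read from lists of genes that are no members. Over all genes tested, 20.6% were higher in NG and 16.9% lower in whole ganglia. The shares were 11% and 11.9% in captured neurons on MG-U74Av2, and 13% and 13.6% on Mouse430_2. They are the background for every list count here and in the next paragraph. Mitochondrial ribosomal proteins, which build the separate ribosome of mitochondria, had 12 of 53 higher and 4 lower in whole NG, among them Mrpl12 (1.19) and Mrpl45 (-0.75). In captured neurons 2 of 53 were higher and 4 lower on MG-U74Av2, among them Mrpl3 (0.74) and Mrpl18 (-0.79), and 5 of 76 were higher and 3 lower on Mouse430_2. Initiation factors, which load ribosomes onto messenger RNA, had 6 of 33 higher and 9 lower in whole NG, 3 of 33 and 3 in captured neurons on MG-U74Av2, and 5 of 36 and 3 on Mouse430_2. Elongation factors, which carry the ribosome along, had 2 of 5 higher in whole NG, Eef1a2 (0.47) and Eef1d (0.41), 0 of 6 called by limma in captured neurons on MG-U74Av2 (1 higher and 1 lower at an unadjusted p under 0.05), and 1 of 6 higher on Mouse430_2, Eef2 (0.53).

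Ribosome biogenesis factors, which assemble the subunits, had 2 of 32 higher and 3 lower in whole NG, 1 of 30 and 2 on MG-U74Av2 captured neurons, and 2 of 39 and 5 on Mouse430_2. Bop1, a factor of large subunit maturation, was higher in both captured experiments (0.58 and 0.49), and Npm1, the nucleolar chaperone nucleophosmin, was lower in both (-1.03 and -0.49) and in whole NG (-0.32). Other messenger RNAs known to begin with a terminal oligopyrimidine tract had 2 of 13 higher and 4 lower in whole NG, 0 of 14 and 3 on MG-U74Av2 captured neurons, and 1 of 16 and 4 on Mouse430_2. Nap1l1, a histone chaperone, was like Npm1 lower in NG in all 3 experiments, by -0.92, -0.54 and -0.74. Fau, whose product is the small subunit protein eS30 and whose symbol escapes the rule, gave -0.11 on Mouse430_2 and was not called.

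The C/T run at the start, held by 34.8% of members with a window, was counted among the called members. It was present in 3 of the 6 lower members with a window in whole ganglia and 0 of the 3 higher ones, in 1 of the 8 lower members in captured neurons on MG-U74Av2, and in 2 of the 4 on Mouse430_2. Rps18, Rpl13a and Rps10 are the 3 lower members of whole ganglia with a run. Members lower in captured than in whole samples had a run in 0 of 5 cases in DRG and 0 of 8 in NG, and those higher in captured DRG in 2 of 10. These counts are too small for a comparison and are given as a description.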

How the data were processed

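RNA from whole ganglia or laser-captured neurons was measured on 2 Affymetrix array types. The deposited values are intensity, 1 MAS5 signal per probe set on a linear scale, per the submitters' processing notes (MAS5 version not given in the sources used here), and the authors left them unscaled between arrays. Their 2% trimmed means ran from 174.9 to 408.3 (whole), 187.7 to 274.5 (captured, MG-U74Av2) and 84.24 to 200.5 (Mouse430_2). The number of arrays limits the precision.

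Arrays were scaled to 1 trimmed mean per type, and log2(signal + pseudocount) was taken, with the 20th percentile as pseudocount (11.7, 11, 7.48, and 11.4 for the joint MG-U74Av2 fit), so that folds of dim genes are understated. Probe sets had to exceed the 40th percentile of the array on as many arrays as the smallest group holds. Differences were fitted with limma 3.58.1 in R 4.3.3 (lmFit, eBayes with trend and robust), and p-values were Benjamini-Hochberg adjusted over everything tested, with a threshold of 0.05. A gene was represented by its brightest tested probe set. The fit was tested on simulated data. Members, gene lists and tests were chosen with earlier results of these data known. The rule named, per comparison, up to 6 called members in each direction with the largest differences (4 for the difference between ganglion differences), up to 4 called in opposite directions in whole and captured samples, the paralogs, the stalk proteins, Rpsa and Rps6, and up to 3 called genes of each other list per direction. Further called members, those of the sample-number sets and single probe sets were chosen after their values were seen. Lists were mitochondrial ribosomal proteins, initiation and elongation factors, biogenesis factors, other terminal oligopyrimidine messenger RNAs, and markers of neurons, glia, endothelium and immune cells. Alternatives were another normalisation, pseudocount, filter or probe set rule, the beta actin ratio as covariate, replicate blocks and each sample left out. Detection calls were not analysed here.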

Additional observations from a re-analysis of the deposited data

Results flagged for a closer look

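A single sample stood apart from the rest of its group in 3 of the 92 groups of member signals examined, and chance flags about 1 in 20 groups. Rpl7l1 read 156.3 in whole NG046, with the other whole NG samples between 96.68 and 120.6. Rpl37a read 543.4 in captured DRG003 on MG-U74Av2, with the other DRG samples between 358.3 and 389.3, and its lower level in NG holds without that sample. Rpl22 read 1662 in DRG002 on Mouse430_2, with the other DRG samples between 1044 and 1278.

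The ganglion difference differed between captured neurons and whole ganglia on MG-U74Av2, by limma's test of the difference itself, for 9 members. The log2 values, captured minus whole, were -1.435 for Rpl37a, -0.888 for Rpl10a, -0.732 for Rpl8, -0.694 for Rps28, -0.684 for Rps18, -0.635 for Rpl19, -0.566 for Rpl7l1, -0.467 for Rpl7 and -0.34 for Rps24. Capture, amplification and RNA quality differ along with this contrast, and their part was not tested.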

How the results depend on the processing

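The number of arrays, dim probe sets and cross-hybridising copies limit these values, and the cause of each change below was not tested unless stated.

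With the same median on every array, whole ganglia had 2 members higher. Mouse430_2 had 2 higher and 2 lower. Captured minus whole NG had 8 higher (median 0.105), and the difference between ganglion differences had 1 higher and 4 lower (median -0.174). Quantile normalisation gave 2 higher on Mouse430_2. Signs turned for values not called: Rps27l 0.069 on Mouse430_2, Rpl7l1 0.099 for captured minus whole NG and Rpl39l 0.036 for the difference between ganglion differences at the same median, and -0.007 for Rpl7l1 on Mouse430_2, 0.101 for Rpl7l1 and 0.073 for Rpl39l in the same comparisons after quantile normalisation.

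Plain _at probe sets alone, which measure fewer members, gave 3 of 22 higher in whole ganglia and 0 of 24 higher in captured neurons on MG-U74Av2. They gave 2 of 21 lower on Mouse430_2 and 7 of 24 higher for captured minus whole DRG. The matching calls over all genes were 1111, 577, 1604 and 1203, from 1215, 634, 1906 and 1433. Without a filter captured neurons on MG-U74Av2 had 5 of 35 lower (median -0.151), with lower calls over all genes going from 689 to 644. The medians of captured minus whole were then 0.224 in DRG and 0.081 in NG. With a mean over a gene's probe sets the difference between ganglion differences had 5 of 27 lower, with lower calls over all genes going from 694 to 659. Plain probe sets turned Rpl10a in captured minus whole DRG to -0.066, and Rps4l to 0.404 in captured minus whole NG and 0.276 in the difference between ganglion differences. The mean over probe sets turned Rps4x in DRG to 0.034, and Rpl7, Rpl19 and Rps4l in NG to -0.018, 0.16 and 0.004.

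With the beta actin ratio as covariate captured neurons on MG-U74Av2 had 6 lower. Captured minus whole then had 0 higher and 1 lower in DRG (median -0.684) and 0 and 4 in NG (median -1.171). In that fit Rps13, Rpl37a, Rps18, Rpl7l1, Rplp0 and Rps4l turned to -0.684, -0.031, -0.382, -0.136, -1.071 and -0.085 in DRG, and Rpsa, Rps10, Rpl7 and Rplp0 to -0.185, -1.316, -1.07 and -1.55 in NG, while Rpl39l turned to 0.003 in the difference between ganglion differences.

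Likeness of samples with the same number in both ganglia was read after each group's mean was taken off every probe set. These deviations correlated at -0.106 to 0.111 over 4 pairs on MG-U74Av2 and -0.154 to 0.155 over 7 pairs on Mouse430_2. All pairs of a captured DRG and a captured NG sample ran from -0.16 to 0.176 and from -0.243 to 0.305, so the numbers are not taken as pairs. With the replicate number as a block 1 member was lower on Mouse430_2 (all genes went from 1810 higher and 1906 lower to 1144 and 1296), and 1 was higher and 9 lower on MG-U74Av2. Whole ganglia shared 1 number, so no paired fit was made there. Only the absent numbers gave 4 higher and 1 lower on Mouse430_2 (median 0.255), and only the shared ones 0 and 10 (median -0.309). The block turned Rpl7l1 to -0.086 and Rplp2 to -0.082 on Mouse430_2. Absent numbers turned Rps27l to 0.272, and shared ones turned Rpl7l1, Rplp2, Rps19bp1 and Rps6 to -0.447, -0.344, -0.437 and -0.17.

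Leaving out each sample in turn, captured neurons on MG-U74Av2 kept 5 to 11 members lower, whole ganglia 3 to 7 in each direction (3 higher without DRG070) and Mouse430_2 1 to 2 higher and 3 to 6 lower. Captured minus whole kept 11 higher and 6 lower in DRG and 2 to 6 higher and 7 to 10 lower in NG, and the difference between ganglion differences 0 to 1 higher and 6 to 9 lower. Signs turned only for members not called. On Mouse430_2 Rpl7l1 ran from -0.092 to 0.067, Rplp2 from -0.008 to 0.151, Rps19bp1 from -0.049 to 0.133 and Rps6 from -0.041 to 0.163. In captured minus whole, Rps4l ran from -0.027 to 0.216 in DRG and Rpl7l1 from -0.101 to 0.015 in NG, and Rpl39l from -0.195 to 0.095 in the difference between ganglion differences.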
